A study of Mus musculus with 144 samples.

Results

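The comparison asked where the transcripts of podocytes and of glomerular endothelial cells (gECs) moved in opposite directions in diabetic mice. It used 92 bulk RNA-seq libraries of the 144 in the series, 46 of sorted podocytes and 46 of sorted gECs, taken from leptin-deficient BTBR ob/ob mice with early diabetic nephropathy (DN) and from their BTBR WT controls. For each gene the ob/ob minus WT effect was estimated in each cell type as a log2 fold change averaged over 6, 12 and 18 weeks of age, and the gEC effect was then subtracted from the podocyte effect. The genes of interest were those well expressed in both cell types, with a mean TPM (transcript abundance scaled for gene length and depth) of 5 or more in each, whose effects had opposite signs. Of 19539 genes tested, 8993 were well expressed in both, 3551 of these had effects of opposite sign, 1299 of those also passed the test for the difference, and 263 passed all 3 tests, that for podocytes, that for gECs and that for the difference.

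Each cell type was sampled in both genotypes with 8 libraries per genotype at 6 weeks and at 12 weeks, 4 of them from females, and with 7 at 18 weeks (3 from WT females and 4 from ob/ob females), which gave 23 WT and 23 ob/ob libraries. All groups were on the BTBR background and carried the same transgenes, a Gt(ROSA)26Sor reporter that switches from tdTomato to EGFP and a Cre transgene whose promoter is active in podocytes. The 2 groups of each cell type therefore differed in Lep alone, with homozygous ob alleles against wild-type alleles, and the controls were lean. Effects of leptin deficiency, obesity, insulin resistance and hyperglycemia cannot be told apart in this design. Glomeruli were isolated with magnetic beads and digested, CD45-negative cells were sorted, podocytes were taken as EGFP-positive and CD73-negative cells, and gECs as PODXL-positive cells without EGFP or CD73. No label tied a library to an animal, so p-values measure the spread between libraries. Since these are bulk samples, fewer cells of a type and less RNA per cell cannot be told apart.

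Podocytes and gECs share the glomerular filter from opposite faces. Podocytes are post-mitotic epithelial cells whose foot processes and slit diaphragms cover the outer side of the glomerular basement membrane, and they release VEGF towards the capillary. gECs line the inner side with a fenestrated, anticoagulant surface that meets the blood and its glucose, lipids and cytokines directly. Both synthesize the basement membrane between them, and both are injured early in DN.

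The libraries carried the markers of the cell types they were labelled as. Total counts ranged from 14.8 M to 37.8 M, and every 18-week group was shallower (median 17 M, highest 20.5 M) than the 6- and 12-week groups (medians 28.2 M and 28.7 M, lowest 20.3 M), so depth and age cannot be told apart. The summed level of 12 glomerular endothelial markers was 14200 to 20400 CPM (counts scaled to the depth of the library) in gECs and 23 to 54.7 CPM in podocytes. Podocyte markers were carried into the gEC libraries at a low level: 12 of them, leaving out Podxl and Nes, stood in gECs at 1.85 to 5.42% of their podocyte level, none at 0. Of these 12, 7 were lower and 0 higher in ob/ob than in WT gECs, with a median log2 fold change of -0.58, whereas their median in podocytes was -0.01. The share of counts from mitochondrially encoded genes was 6.77 to 9.56% (median 7.68%) in WT podocytes and 7.72 to 13.2% (median 10%) in ob/ob podocytes, against 5.69 to 9.72% and 6.69 to 11.7% (medians 7.67% and 8.6%) in gECs.

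The promoters of 3 opposite-sign genes are shown first because each holds the motif of a regulator tied to a gene list described further on. Nfkbia itself was placed in the metallothionein and glucocorticoid list and not in the NF-κB list. Sequences come from the RefSeq annotation of GRCm38.p6 and are read 5′ to 3′ on the strand of the gene, and capitals mark the motif. Hmgcs1, at chr13:119690164-119690272 on the plus strand, encodes the enzyme that makes HMG-CoA for cholesterol synthesis, and it was higher in podocytes and lower in gECs of ob/ob mice. Nfkbia, at chr12:55492648-55492726 on the minus strand, and Tnfaip3, at chr10:19015411-19015585 on the minus strand, encode the inhibitors IκBα and A20, which are themselves switched on by NF-κB and restrain it, and both moved the other way.
Hmgcs1: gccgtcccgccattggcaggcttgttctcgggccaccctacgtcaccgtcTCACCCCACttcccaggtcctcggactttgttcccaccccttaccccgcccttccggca
Nfkbia: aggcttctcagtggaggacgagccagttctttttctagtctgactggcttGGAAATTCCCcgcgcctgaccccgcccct
Tnfaip3: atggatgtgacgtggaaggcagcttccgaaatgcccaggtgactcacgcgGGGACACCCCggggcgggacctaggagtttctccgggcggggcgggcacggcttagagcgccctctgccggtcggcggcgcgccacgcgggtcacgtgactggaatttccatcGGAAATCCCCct

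In Hmgcs1 the capitals are a sterol regulatory element, searched as TCACNCCAC on both strands, and in Nfkbia and Tnfaip3 they are matches to the κB consensus, also on both strands. Among all 32851 promoters, taken from 250 bases before to 50 bases after the start, 1.24% held the first motif and 4.51% the second. A RefSeq promoter was found for 76 of the 109 genes that were higher in podocytes and lower in gECs, and 1 of these (Hmgcs1) held the sterol element and 1 (Nin) the κB consensus. Of the 154 genes with the reverse pattern 120 had a promoter, and 10 of these (8.33%) held the κB consensus: Tnfaip3, Nfkbia, Tbc1d1, Ak1, Pde4b, Tmcc3, Hmgb2, Insig2, Rras and Mcu. Of 16 genes of the NF-κB list with a promoter, 7 (43.8%) held the κB consensus, Tnfaip3 among them. The 1.24% and 4.51% are shares of promoters, whereas the 8.33% and 43.8% are shares of genes. The units differ, so these shares cannot be compared directly. The matches describe the letters in the window only.

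Both cell types differed broadly between ob/ob and WT mice. In podocytes 4202 genes passed edgeR's quasi-likelihood test at an adjusted p under 0.05 (21.5% of those tested), 2476 higher (12.7%) and 1726 lower (8.83%) in ob/ob, and in gECs 4771 passed (24.4%), 2286 higher (11.7%) and 2485 lower (12.7%). The difference between the 2 effects passed in 3181 genes (16.3%), with the podocyte effect above the gEC effect in 1894 (9.69%) and below it in 1287 (6.59%). Among the 8993 well-expressed genes the difference passed in 1904 (21.2%), on the podocyte side in 896 (9.96%) and on the gEC side in 1008 (11.2%). Of these 8993, 493 rose in both cell types and 309 fell in both, 109 rose in podocytes and fell in gECs, and 154 fell in podocytes and rose in gECs. A further 1554 passed in podocytes alone, and the difference passed in 740 of those, while 1600 passed in gECs alone, with the difference passing in 629. Since the signs define the opposite class, its 263 genes (2.92% of the well-expressed genes) are a description and not a test.

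**Figure D1:**
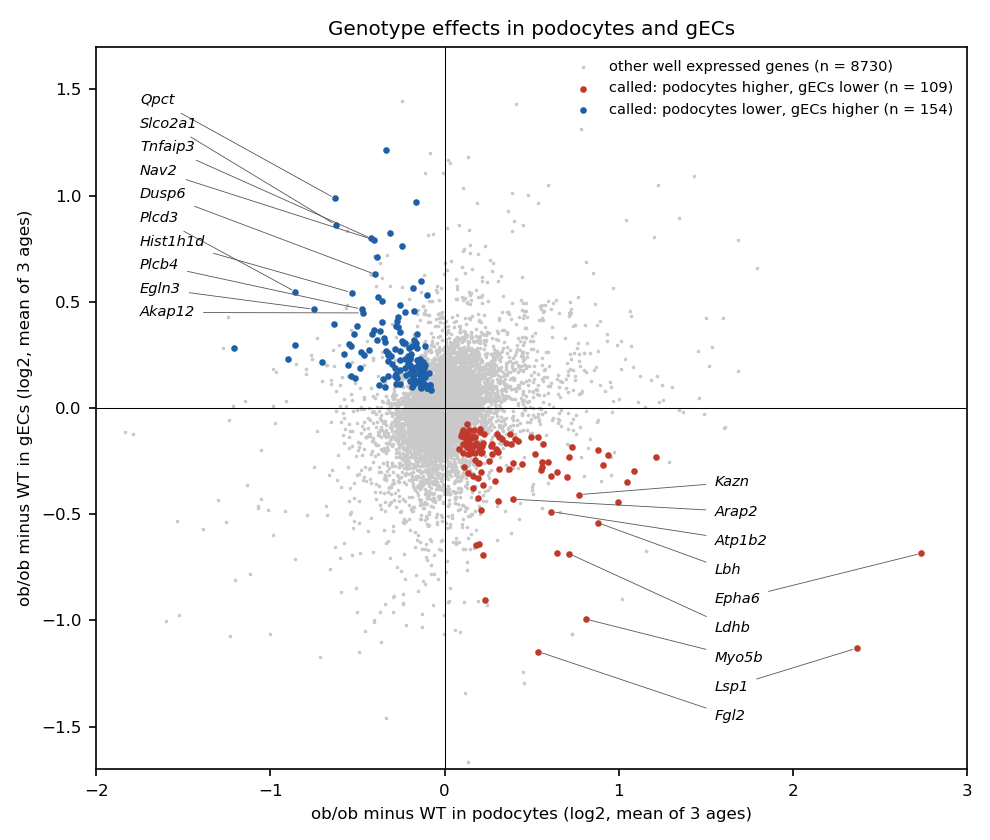
Each point is a gene well expressed in both cell types, with its ob/ob minus WT log2 fold change in podocytes on the x axis and in gECs on the y axis, and the 263 genes that passed all 3 tests are coloured by direction, 109 in the lower right and 154 in the upper left. The axes leave out 19 of the 8993 genes.

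Most opposite-sign changes were small. The median over the 263 genes of the smaller of the 2 absolute log2 effects was 0.177, and both effects reached 0.5 in 11 genes, 7 higher in podocytes and 4 higher in gECs. The limit of 5 TPM was set in advance on the mean over all libraries of a cell type, both genotypes together. A gene could therefore pass it through the genotype where it was higher. The median level of the 263 was 32 TPM in podocytes and 35.4 TPM in gECs, beside 28.2 and 27.4 TPM over all well-expressed genes. Some leading genes lay near the limit in gECs, Plcd3 (5.53 TPM), Myo5b (5.93), Fgl2 (6.14) and Qpct (6.22). Between the cell types, 254 of the 263 lay within 10-fold. Myo5b (8.47%), Fgl2 (7.47%) and Net1 (9.2%) had gEC levels this small as a percentage of their podocyte level, and genes with gEC levels over 10 times it included Plk2, Rgl1, Arhgap26, Epas1 and Klf3. Just inside the expression limit lay Pigl (5.35 TPM in podocytes and 5.04 in gECs), Arhgap26 (5.05 and 137.8) and Nrbp2 (29.3 and 5.06), and just outside it Synj2 (18.9 and 4.99), Fzd4 (4.93 and 86.6) and Dapk1 (4.71 and 30.6).

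Among well-expressed genes that rose in podocytes and fell in gECs, the gene that moved furthest both ways was Lsp1, which encodes an F-actin-binding cytoskeletal protein best known from leukocytes. Its level in podocytes was 9.87 to 22.9 CPM (median 16.3) in the 23 WT libraries and 45.8 to 103.5 CPM (median 82.9) in the 23 ob/ob libraries. In gECs it was 3.63 to 31.3 CPM (median 9.09) in WT and 0.810 to 11.7 CPM (median 4.85) in ob/ob. The podocyte groups did not overlap, which held for 0.486% of all genes in podocytes, while in gECs 7 of 23 ob/ob libraries lay below the lowest WT library. Lsp1 was thus 5.16-fold higher in ob/ob podocytes (log2 fold change 2.37, SE 0.17) and 2.19-fold lower in ob/ob gECs (-1.13, SE 0.18), with a difference of 3.50 (SE 0.24, adjusted p = 2.44e-21). Its gEC effect was -0.74 without the libraries numbered 1 and -1.51 without those numbered 4, and it passed in both fits.

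Myo5b, a myosin that carries recycling endosomes, was the next. Podocytes held it at 67.7 to 103.8 CPM (median 87.6) in WT and 116 to 203.3 CPM (median 159.6) in ob/ob, again with no overlap. gECs held it at 3.67 to 29.6 CPM (median 8.41) in WT and at 0.486 to 11.0 CPM (median 5.41) in ob/ob, and 7 ob/ob libraries lay below every WT library. The effects were 0.81 (SE 0.14) and -0.99 (SE 0.16). Fgl2, a membrane-bound prothrombinase, had a similar level pattern, with effects of 0.54 (SE 0.15) and -1.15 (SE 0.17).

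The summed level in gECs of the podocyte markers without Podxl was 891 to 3830 CPM (median 1240) in WT and 749 to 2100 CPM (median 1410) in ob/ob. This sum keeps Nes, which stood at 204.5 TPM in gECs and rose there (0.27), whereas 7 of the 12 markers without Nes fell. With marker sums of the other cell type as covariates, Podxl left out, the gEC effects were -1.05 for Lsp1, -0.913 for Myo5b and -1.1 for Fgl2. With Podxl included they were -1.21, -1.1 and -1.29, and all passed in both fits. The part of carried-over podocyte RNA in these falls was not tested further. With the mitochondrial share as the covariate the podocyte effect was 2.15 for Lsp1 and still passed, while Myo5b (0.62, adjusted p = 0.103) and Fgl2 (0.44, adjusted p = 0.407) no longer did.

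Ldhb, the lactate dehydrogenase subunit that favours lactate use, was the 1 gene of 18 in the glycolysis list that passed in both cell types with opposite signs. Podocyte levels were 2.51 to 8.31 CPM (median 4.99) in WT and 4.75 to 17.5 CPM (median 7.61) in ob/ob, and gEC levels 5.75 to 12.2 CPM (median 9.69) and 3.42 to 13.8 CPM (median 5.21). In gECs 17 of 23 ob/ob libraries lay below the WT range, with 1 above it. Its effects were 0.71 (SE 0.10) in podocytes and -0.69 (SE 0.10) in gECs.

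The receptor tyrosine kinase gene Epha6 rose 6.68-fold in podocytes, from a WT median of 9.52 to an ob/ob median of 62.0 CPM, and fell 1.61-fold in gECs, from 39.1 to 26.8 CPM. Of the ob/ob podocyte libraries 15 lay above the WT range, and of the ob/ob gEC libraries 12 lay below it. Smaller opposite changes in the same direction were measured for the transcriptional cofactor gene Lbh (0.88 in podocytes, -0.54 in gECs), the sodium pump subunit gene Atp1b2 (0.61 and -0.49), Kazn (0.77 and -0.41), which encodes a protein of cell junctions, and the small GTPase regulator gene Arap2 (0.39 and -0.43). All passed the test in both cell types, and their ob/ob ranges overlapped the WT ranges in both.

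**Figure D2:**
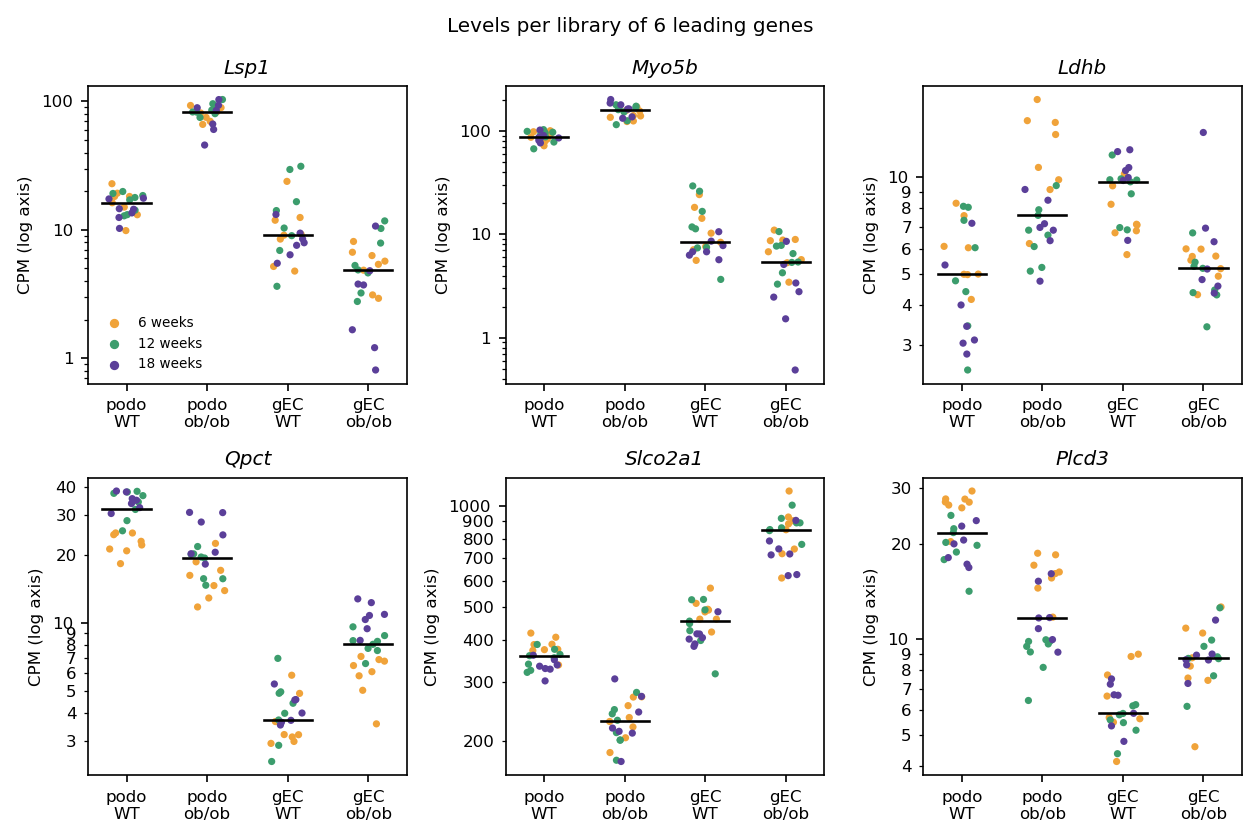
Levels in CPM on log axes of Lsp1, Myo5b, Ldhb, Qpct, Slco2a1 and Plcd3, with 1 point per library coloured by age, for WT and ob/ob podocytes and gECs (23 libraries each), and the bar marks the median. The first 3 genes are higher in ob/ob podocytes and lower in ob/ob gECs, and the last 3 show the reverse.

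Of the genes that fell in podocytes and rose in gECs, Slco2a1, the prostaglandin transporter, had the most ob/ob libraries outside the WT range among the 10 named. It was abundant in both cell types, with 302.2 to 419.1 CPM (median 359.1) in WT and 174.2 to 306.4 CPM (median 229) in ob/ob podocytes. In gECs it stood at 317.2 to 569.9 CPM (median 454.8) in WT and 610.6 to 1107 CPM (median 849.5) in ob/ob. In podocytes 22 of 23 ob/ob libraries lay below the WT range, and in gECs the groups did not overlap, which held for 0.0819% of all genes there. The fall in podocytes was 1.54-fold (-0.62, SE 0.05), the rise in gECs 1.82-fold (0.86, SE 0.05), and the difference -1.49 (SE 0.07, adjusted p = 1.28e-30).

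Qpct encodes glutaminyl cyclase, which modifies the N-terminus of peptides and chemokines. Podocytes had 18.3 to 38.5 CPM (median 31.9) in WT and 11.8 to 30.9 CPM (median 19.4) in ob/ob, and gECs 2.43 to 6.96 CPM (median 3.71) and 3.57 to 12.8 CPM (median 8.04). Below the WT range lay 10 ob/ob podocyte libraries, and above it 15 ob/ob gEC libraries. Its effects were -0.63 (SE 0.07) and 0.99 (SE 0.08).

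A pair of phospholipase C genes moved in parallel with it, Plcd3 (-0.86 in podocytes, 0.55 in gECs) and Plcb4 (-0.48 and 0.47), whose products cleave phosphoinositides downstream of receptors. Plcd3 stood at medians of 21.7 CPM in WT and 11.7 CPM in ob/ob podocytes, with 14 ob/ob libraries below the WT range, and at 5.85 and 8.71 CPM in gECs, with 8 above it. The ERK phosphatase gene Dusp6 (-0.40 and 0.63), the scaffold gene Akap12 (-0.47 and 0.45), which anchors protein kinase A, and Nav2 (-0.41 and 0.79), a cytoskeletal guidance gene, changed likewise. Hist1h1d, a linker histone gene (-0.53 and 0.54), belongs to a family of near-identical copies that can share reads, so its values are uncertain. With the mitochondrial share as a covariate the podocyte effects of Plcb4 (-0.31, adjusted p = 0.0603), Akap12 (-0.28, adjusted p = 0.394), Nav2 (-0.15, adjusted p = 0.695), Dusp6 (-0.13, adjusted p = 0.744) and Hist1h1d (-0.42, adjusted p = 0.272) no longer passed.

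Genes of the oxygen-sensing pathway were among those lower in podocytes and higher in gECs. Epas1, which encodes HIF-2α, is predominantly an endothelial transcript in the filter. Its podocyte level was 0.831% of its gEC level, within the 0.033 to 0.869% of the 12 glomerular endothelial markers. The part of carried-over endothelial RNA in its podocyte values was not tested further. In podocytes it stood at 30.0 to 68.3 CPM (median 48.1) in WT and at 6.73 to 40.2 CPM (median 20.2) in ob/ob, with 20 ob/ob libraries below the WT range. In gECs it rose from 2728 to 4853 CPM (median 3634) in WT to 3493 to 5452 CPM (median 4290) in ob/ob, with 6 libraries above the WT range. The effects were -1.21 (SE 0.09) and 0.28 (SE 0.09, adjusted p = 0.0166). Egln3, a prolyl hydroxylase that marks HIF for destruction, moved with it (-0.75 and 0.47), whereas Ndrg1, a stress gene induced by hypoxia, moved the other way (0.17 and -0.38).

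The largest differences between the cell types were not all reversals. Thbd, the anticoagulant receptor thrombomodulin, rose in both, 26.6-fold in podocytes, from 0.563 to 4.44 CPM (median 1.36) in WT to 12.3 to 95.0 CPM (median 50.5) in ob/ob, and 1.46-fold in gECs, where its medians were 505.6 and 728.1 CPM. Clu, which encodes the extracellular chaperone clusterin, rose 15.0-fold in podocytes, from a median of 2.56 to 34.7 CPM, and had a gEC effect of -0.03 (adjusted p = 0.881). S100a6, a calcium-binding protein gene, rose 8.91-fold in podocytes and 1.47-fold in gECs. For all 3 the ob/ob and WT podocyte libraries did not overlap. Their mean podocyte levels over both genotypes were 12.25, 25.86 and 8.846 TPM, so they met the expression limit with the higher ob/ob libraries included.

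On the gEC side, Serpine2, which encodes the protease inhibitor nexin-1, rose 4.14-fold in gECs with no overlap, from a median of 20.5 to 90.5 CPM, and 1.36-fold in podocytes. The phosphatase gene Ptpru fell 3.46-fold in podocytes, again with no overlap, from 50.2 to 14.5 CPM, and had a gEC effect of -0.12 (adjusted p = 0.398). Ak1, an adenylate kinase that balances ATP, ADP and AMP, fell 1.26-fold in podocytes and rose 2.32-fold in gECs. The heat shock pseudogene Hsp25-ps1 had a difference of -1.68, but it shares reads with its parent gene Hspb1 and is uncertain.

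The values at single ages describe the 263 genes and test nothing, since the average of the ages chose them. The difference of the effects had the same sign at 6, 12 and 18 weeks in all 263, beside 4876 of the 8993 well-expressed genes. Both effects kept opposite signs at every age in 233, beside 925 of the 8993. The 233 were 99 of the 109 higher in podocytes and 134 of the 154 higher in gECs. At a single age the difference passed the test in 157 of the 263 at 6 weeks, 214 at 12 weeks and 161 at 18 weeks, against 890 (4.55%), 1403 (7.18%) and 783 (4.01%) of all genes tested. It passed at every age in 108 of the 263, beside 348 of all 19539 genes tested. Lsp1 differed by 3.28, 3.64 and 3.58 at the 3 ages, Epha6 by 4.00, 3.31 and 2.96, Slco2a1 by -1.50, -1.62 and -1.34, and Epas1 by -1.69, -1.49 and -1.28.

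Tnfaip3, in contrast, was called for the difference at 12 weeks (-2.02, adjusted p = 8.8e-05) and not at 6 weeks (-0.56, adjusted p = 0.55) or 18 weeks (-1.08, adjusted p = 0.16), and Nfkbia was the same, with -1.41, -0.59 and -0.72. A test of the difference at 18 weeks minus that at 6 weeks passed in none of the 263 genes and in 5 of all genes (0.0256%), with 1083 at an unadjusted p under 0.05. Between males and females the difference of effects passed in none of the 263 and in 1 of all genes (0.00512%), with 811 at an unadjusted p under 0.05. In 262 of the 263 it had the same sign in both sexes, beside 6733 of the 8993 well-expressed genes. The 263 were chosen on both sexes together, so this count describes them and tests nothing.

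**Figure D3:**
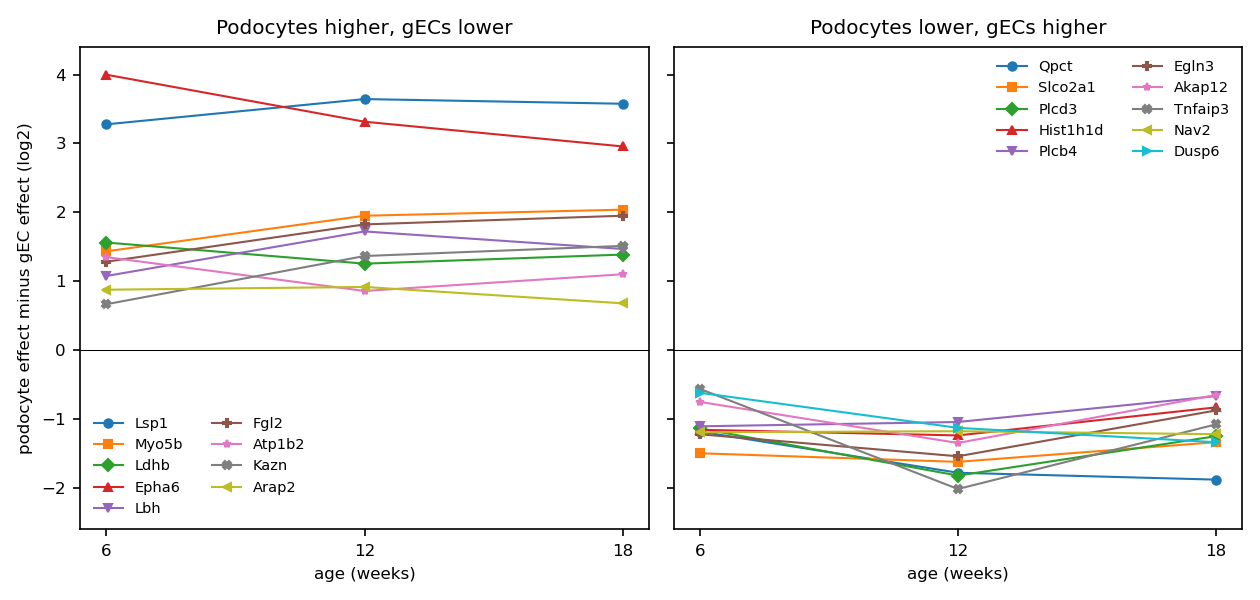
The podocyte effect minus the gEC effect (log2) on the y axis at 6, 12 and 18 weeks on the x axis, with 1 line per gene for 9 of the leading genes higher in podocytes and lower in gECs (left) and 10 of the reverse pattern (right). Lsp1 and Epha6 stand highest on the left, and every line stays on 1 side of 0.

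Mesangial cells, the third sorted cell type and one whose libraries took no part in choosing the genes, followed neither side uniformly. Of the 108 genes higher in podocytes and lower in gECs that could be tested there, 29 rose (26.9%) and 45 fell (41.7%) in ob/ob mesangial cells, with a median log2 fold change of -0.06. All 154 genes of the reverse pattern were tested, 61 rose (39.6%) and 29 fell (18.8%), and the median was 0.07. Over the 8948 well-expressed genes tested there, 23.3% rose and 21.6% fell. Mesangial values followed the gEC direction for Ldhb (-0.49, adjusted p = 2.32e-08) and Col18a1 (2.20, adjusted p = 4.31e-21) and the podocyte direction for Epas1 (-0.21, adjusted p = 3.33e-07).

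Of the 27 gene lists described below, 12 held at least 1 of the 263 opposite-sign genes, 21 of the 609 genes in any list, beside 263 of 19539 genes tested. Beside the counts of every list stand the shares over all genes tested. In podocytes 12.7% rose and 8.83% fell, and in gECs 11.7% rose and 12.7% fell. The difference passed on the podocyte side in 9.69% and on the gEC side in 6.59%. A count near these shares is not a result about its list. The list of cholesterol synthesis and uptake showed the plainest split. Of its 22 genes tested, 11 rose and 1 fell in podocytes, 2 rose and 8 fell in gECs, and the difference passed on the podocyte side in 11 and on the gEC side in 1. Its median effect was 0.158 in podocytes and -0.137 in gECs, beside medians of 0 and -0.04 over all genes tested. The rises in podocytes included the sterol transfer gene Stard4 (0.83) and the pathway enzyme genes Sc5d (0.52), Sqle (0.42), Cyp51 (0.29), Idi1 (0.27) and Hmgcs1 (0.16).

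In gECs the falls included those of Sqle (-0.51), Cyp51 (-0.34), Lss (-0.29), Stard4 (-0.26), Insig1 (-0.24), Hmgcs1 (-0.19) and Srebf2 (-0.15), which encodes the transcription factor SREBP2. Cyp51 and Hmgcs1 were among the 3 well-expressed members that passed in both cell types with opposite signs, and Hmgcs1 is the list's 1 gene, of 14 with a RefSeq promoter, that held the sterol element printed above. Sqle had 4.01 CPM in WT and 5.14 CPM in ob/ob podocytes at the median, and 11.5 and 8.43 CPM in gECs, but its podocyte level lay under the expression limit. With the mitochondrial share as a covariate 6 rose and 0 fell in podocytes, 1 rose and 7 fell in gECs, and the difference passed on the podocyte side in 7.

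**Figure D4:**
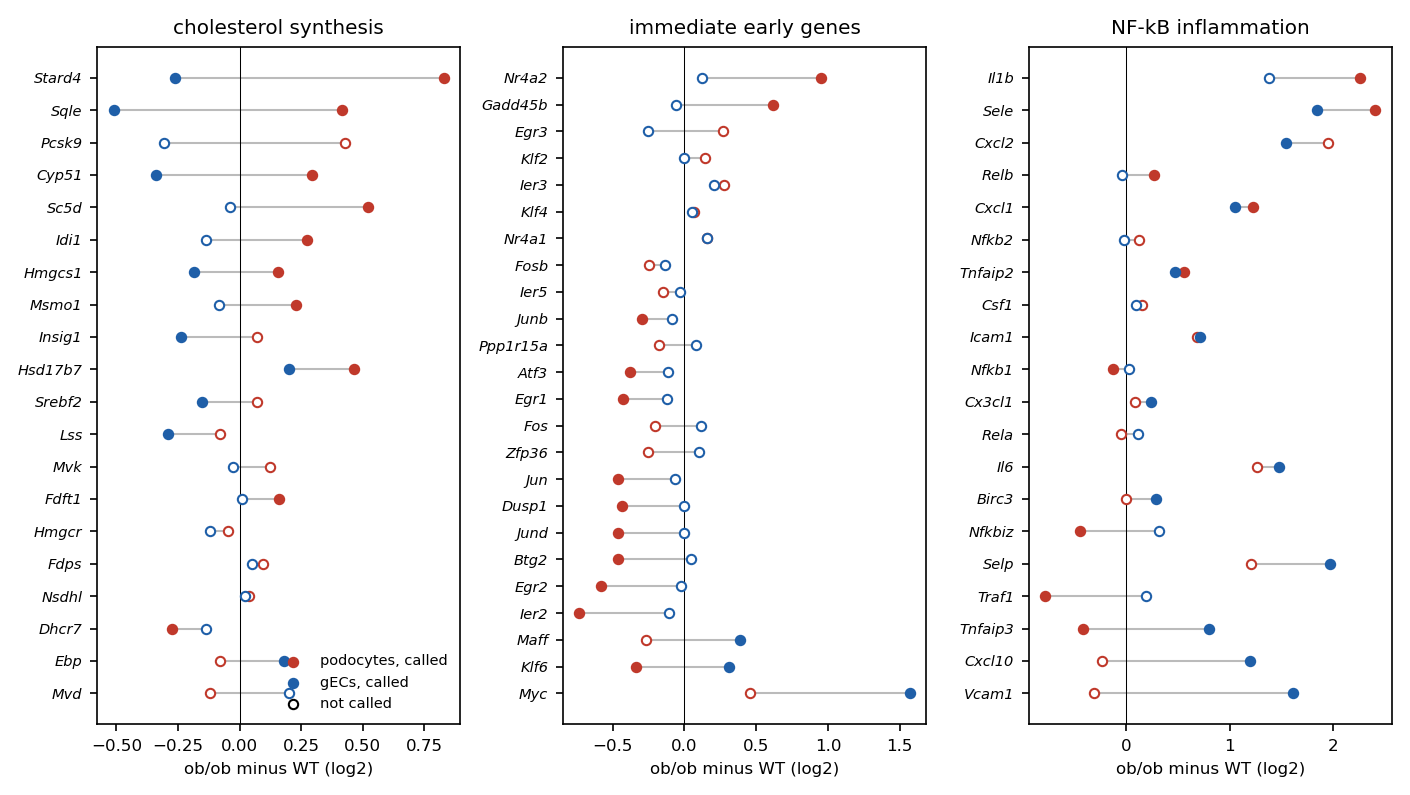
The ob/ob minus WT log2 fold change in podocytes and in gECs of tested members of the cholesterol synthesis, immediate early gene and NF-κB lists, with 1 row per gene and filled points for effects with an adjusted p under 0.05. Cyp51 and Hmgcs1 lie to the right of 0 in podocytes and to the left in gECs.

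Inflammatory genes under NF-κB were on the gEC side where the cell types differed, with 1 exception. Of 20 tested, 12 rose and 0 fell in gECs (median 0.590), against 5 and 4 in podocytes (median 0.138), and the difference passed on the gEC side in 6 and on the podocyte side in 1. The gEC rises included the leukocyte adhesion molecules Vcam1 (1.61), Selp (1.97), Sele (1.84) and Icam1 (0.71) and the chemokines Cxcl10 (1.20) and Cxcl1 (1.05). Selp is also a marker of endothelium outside the glomerular tuft, of which 7 of 9 rose in ob/ob gECs, and the part of such cells was not tested. In podocytes Sele (2.41) and Cxcl1 (1.23) rose too, while the feedback genes Nfkbiz (-0.45), Traf1 (-0.79) and Tnfaip3 (-0.42) fell. Only 10 of the 20 genes tested were well expressed in both cell types. Under the expression limit lay Traf1 (2.22 TPM in podocytes and 3.375 in gECs), Selp (0.00326 and 3.51) and, in podocytes, Vcam1 (0.491). Tnfaip3 passed in podocytes only narrowly (adjusted p = 0.04995), at levels of 41.7 to 443 CPM in WT and 24.4 to 339.5 CPM in ob/ob that overlapped widely.

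The immediate early genes, which respond within minutes to signals or to cell handling, changed mainly in podocytes. Of 24 tested, 10 fell and 2 rose in podocytes (median -0.249), 0 fell and 3 rose in gECs (median -0.00276), and the difference passed on the gEC side in 8 and on the podocyte side in 2. Ier2 (-0.73), Egr2 (-0.58), Btg2 (-0.46), Jun (-0.46), Jund (-0.46) and Dusp1 (-0.43) fell in podocytes with gEC values between -0.11 and 0.04. Klf6 was the 1 member that passed in both with opposite signs (-0.34 and 0.31). With the mitochondrial share as a covariate, 2 rises and 1 fall remained in podocytes and 0 differences on the gEC side. For the NF-κB list 1 difference remained on the gEC side and 0 on the podocyte side. Over all genes the same covariate left 1234 differences of 3181, so the loss is not particular to these lists. The part of the mitochondrial share in the result was not tested further.

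Basement membrane genes split by chain. Of 19 tested, 9 rose and 4 fell in podocytes, 7 rose and 6 fell in gECs, and the difference passed on the podocyte side in 7 and on the gEC side in 3. The type IV collagen genes Col4a1 and Col4a2 rose in both, by 1.54 and 1.60 in podocytes and by 0.29 and 0.42 in gECs. Lamb1, a laminin chain of the immature membrane, rose in podocytes (0.62) and fell in gECs (-1.01), as did Hspg2 (0.52 and -0.46), the gene of the proteoglycan perlecan, and Col4a6 (0.35 and -0.65), although none of these was well expressed in both. Of the 13 members that were well expressed in both, 3 passed in both cell types with opposite signs, and these moved the other way. They were the mature laminin chain gene Lamb2 (-0.13 and 0.60), Col18a1 (-0.16 and 0.97) and the agrin gene Agrn (-0.26 and 0.11). Col18a1 ranged from 193.1 to 488.7 CPM in WT and from 496.5 to 924.7 CPM in ob/ob gECs with no overlap, and its podocyte medians were 1898 and 1656 CPM.

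Glycolysis differed in size rather than in direction. Of 18 genes tested, 13 rose and 0 fell in podocytes, 9 rose and 1 fell in gECs, and the difference passed on the podocyte side in 7 and on the gEC side in 0. Pfkfb3, which makes the activator of phosphofructokinase, rose by 1.07 and 0.43, Gapdh by 0.54 in podocytes with 0.11 in gECs, and Tpi1 by 0.53 in podocytes with 0.09 in gECs. Ldhb supplied the gEC fall. In the list of insulin and glucose sensing, Irs1 (0.53 and -0.30), Igf1r (0.11 and -0.28) and Igf2r (0.17 and -0.21) rose in podocytes and fell in gECs, Irs1 at a gEC level under the expression limit, among 5 rises and 2 falls in podocytes and 4 rises and 6 falls in gECs over 20 genes.

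The signalling and cytoskeletal lists gave reversals of single genes. Among 22 YAP/TEAD targets 5 rose and 3 fell in podocytes, where 12.7% and 8.83% of all genes did. In gECs 9 rose and 6 fell, beside 11.7% and 12.7% of all genes. Cyr61, a matricellular gene that responds to stretch, passed with opposite signs (-0.39 and 0.71). MRTF/SRF targets rose in both, 18 of 28 in podocytes and 17 in gECs, with 1 and 0 falls, and the difference passed on the podocyte side in 8, led by the contractile genes Lmod1 (1.76), Tagln (1.12) and Csrp1 (1.07), and on the gEC side in 5. Of 6 smooth muscle markers tested, 4 rose and 0 fell in ob/ob podocytes, Mustn1 (2.66), Acta2 (0.94), Tagln (0.80) and Des (0.76). Their mean podocyte levels were 15.6, 1.87, 10 and 6.2 TPM. The summed level of the whole marker list was 232 to 347 CPM (median 287) in WT and 284 to 494 CPM (median 325) in ob/ob podocytes. That sum mainly follows Ntrk3, at 211.5 TPM in podocytes and 4.92 TPM in gECs, which did not pass in podocytes (0.18, adjusted p = 0.612). The part of smooth muscle cells in these rises was not tested. In the TGF-β and BMP list, 8 rose and 1 fell in podocytes and 13 rose and 5 fell in gECs of 28, and the co-receptor gene Tgfbr3 passed with opposite signs (-0.14 and 0.22).

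Of 31 angiogenic genes, 8 rose and 4 fell in podocytes and 12 rose and 2 fell in gECs, and Pgf, the placental growth factor gene, fell in podocytes (-1.61) and rose in gECs (1.52) at levels under the expression limit. Of 23 interstitial matrix genes, 11 rose and 1 fell in podocytes and 15 rose and 4 fell in gECs. Col6a1, also under that limit in both, rose in podocytes (1.10) and fell in gECs (-1.16), whereas Fn1 (0.36 and 2.10) and Bgn (0.55 and 1.99) were on the gEC side. Among 26 proliferation genes, 2 rose and 0 fell in podocytes and 13 rose and 2 fell in gECs, with the difference on the gEC side in 5 and on the podocyte side in 2.

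Genes that define each cell type's own function gave a similar mixture. In the list of 30 genes of glomerular endothelial function, 7 rose and 3 fell in podocytes and 13 rose and 2 fell in gECs. The tight junction gene Cldn5 (-0.27 and 0.38) and Plat (-0.27 and 0.41), which encodes tissue plasminogen activator, passed with opposite signs. Both were also podocyte transcripts, Cldn5 at medians of 254.4 and 227.1 CPM in WT and ob/ob podocytes against 20.3 and 30.6 CPM in gECs. Plvap (2.48), Vwf (2.11) and Edn1 (1.40), genes of fenestral diaphragms, clotting and vasoconstriction, rose in gECs with podocyte values of -0.20, -0.15 and -0.31 that did not pass. Plvap and Vwf are markers of endothelium outside the glomerular tuft, as Selp is, and the summed level of these markers in gECs was 1190 to 2110 CPM (median 1810) in WT and 1780 to 2310 CPM (median 2040) in ob/ob. That sum mainly follows Efnb2 (614.5 TPM in gECs) and Sox17 (259.9 TPM), whose gEC effects of -0.07 and 0.14 did not pass. The other 7 of the 9 markers tested rose in gECs, Plvap and Vwf from mean levels of 70.39 and 10.28 TPM.

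In the slit diaphragm and foot process list of 28 genes, 7 rose and 1 fell in podocytes and 5 rose and 8 fell in gECs, with the difference on the podocyte side in 5 and on the gEC side in 0. The 8 gEC falls included the podocyte markers Wt1 (-0.98), Ptpro (-1.01) and Magi2 (-0.82), whose carried-over levels are given above, and their part in the list's result was not tested. In podocytes the cytoskeletal genes Anln (1.78), Myo1e (0.70) and Inf2 (0.55) rose.

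The stress lists differed in their reversals, meaning well-expressed genes that passed in both cell types with opposite signs. Hypoxia had 3 of 16, p53 targets 2 of 11, metallothionein and glucocorticoid targets 1 of 10 and immediate early genes 1 of 22. The heat shock list had 0 of 21, the unfolded protein response 0 of 21 and NRF2 0 of 20. Over all well-expressed genes the share was 2.92%. Of 22 heat shock genes 12 fell in podocytes and 9 in gECs, with 2 and 1 rises, and Hspb1 fell further in podocytes (-1.54) than in gECs (-0.53), and the difference passed. Of 18 p53 targets, 7 rose and 1 fell in podocytes and 10 rose and 2 fell in gECs, and Plk2 (1.05 and -0.35) and Trp53inp1 (-0.19 and 0.18) passed with opposite signs in opposite orders. Plk2 stood in podocytes at 0.61% of its gEC level, within the range of the glomerular endothelial markers there, and the part of carried-over RNA was not tested further. Hypoxia genes, of which 19 were tested, gave 8 rises and 4 falls in podocytes and 5 rises and 1 fall in gECs. Of 13 metallothionein and glucocorticoid targets, 6 rose and 2 fell in podocytes and 6 rose and 0 fell in gECs, and Nfkbia (-0.38 and 0.52) was the reversal.

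The other 9 lists held no well-expressed gene that passed in both cell types with opposite signs. Mitochondrially encoded genes rose in both, 10 of 15 in podocytes and 5 in gECs. In podocytes and gECs respectively, NRF2 antioxidant genes rose in 7 and 6 of 24 and fell in 2 and 0, unfolded protein response genes rose in 4 and 6 of 22 and fell in 0 and 2, and lysosome and autophagy genes rose in 4 and 8 of 22 and fell in 2 and 1. Oxidative phosphorylation genes rose in 3 and 9 of 28 and fell in 0 and 0, and fatty acid and PPAR target genes rose in 7 and 8 of 23 and fell in 2 and 3. Interferon response genes rose in 4 and 1 of 25 and fell in 0 and 1, MHC class I and complement genes rose in 3 and 7 of 17 and fell in 0 and 1, and circadian clock genes rose in 2 and 1 of 18 and fell in 1 and 1.

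**Figure D5:**
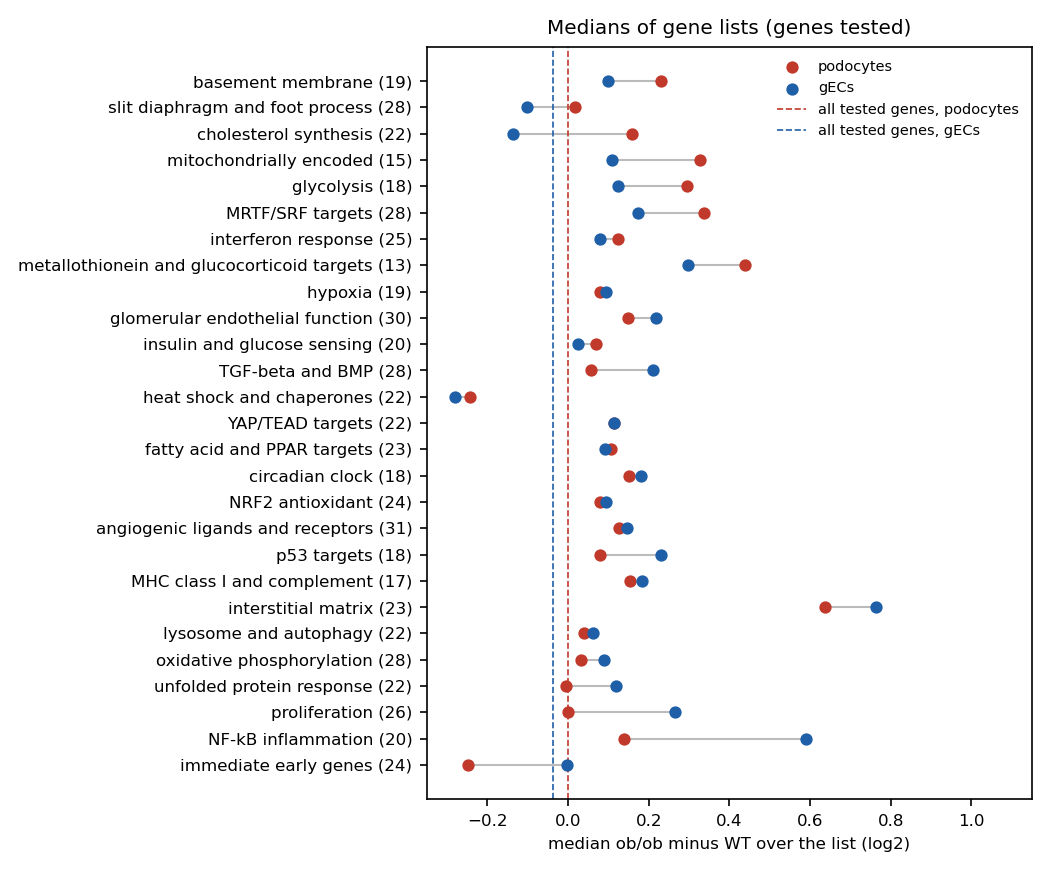
The median ob/ob minus WT log2 fold change over each of the 27 gene lists in podocytes and in gECs, ordered by the median difference, with the number of genes tested in brackets and dashed lines for the medians over all tested genes. Cholesterol synthesis lies at 0.158 in podocytes and -0.137 in gECs, and NF-κB inflammation at 0.138 and 0.590.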

How the data were processed

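RNA of sorted cells was made into stranded SMART-Seq libraries. Per the labels, the submitters used FastQC 0.11.5, Bowtie2 2.3.3.1 and RSEM 1.3.0 on mm10, and the authors deposited expected counts and TPM per gene and library. Expected counts were rounded to whole numbers for testing, and the deposited TPM values served for the limit of 5 and for levels. CPM was computed with TMM-scaled library sizes.

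edgeR 4.0.16 (R 4.3.3) fitted quasi-likelihood models to the 92 libraries with 12 groups of cell type, genotype and age and a sex term per cell type, after filterByExpr. Standard errors were the effect divided by the square root of its F. Tests were two-sided, p-values were adjusted by Benjamini-Hochberg over all tested genes, and the threshold was 0.05. Mesangial libraries had a fit of their own. Alternatives changed the scaling, low-count filter, sex term, libraries, covariates, expression limit or tool (limma 3.58.1, DESeq2 1.42.0).

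Named genes were the 10 per direction with the largest smaller effect among opposite-sign genes, the 6 per direction with the largest difference of the same sign at each age, and up to 3 per list by the p of the difference. Predicted genes were left out, and other list members named were chosen after their values were seen. The genes and lists were chosen with earlier results of these data known. All 46517 gene entries were read, and no library contradicted its labelled sex. Replicates came from labels that do not say whether they are separate animals. The perfused and unperfused glomerulus samples were not used here. Some genes that met the naming rule are not reported here.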

Additional observations from a re-analysis of the deposited data

Results flagged for a closer look

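Single libraries were compared with the others of their group of 7 or 8 (cell type, genotype and age) for the 6 genes drawn by library, the mitochondrial share, the gEC marker sum and the podocyte marker sum without Podxl. In 10 of 108 such groups the highest or lowest library stood far from the next one, where chance gives about 1 in 20.

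Among ob/ob gECs at 18 weeks, 1 female library was highest for Lsp1 at 10.7 CPM (next 4.8 CPM), and 1 male library was highest both for Ldhb at 13.8 CPM (next 6.95 CPM) and for Plcd3 at 11.5 CPM (next 8.99 CPM). That male library also had proximal tubule markers at 109 CPM (next 46.9 CPM) and distal nephron markers at 21.1 CPM (next 9.77 CPM). Sums of the other marker lists were not screened, and 1 female ob/ob gEC library at 12 weeks held immune markers at 104 CPM (next 10.2 CPM). Among ob/ob gECs at 6 weeks, 1 female library had the lowest sum of gEC markers, 15300 CPM (next 18400 CPM). Among WT gECs at 18 weeks, 1 female library was lowest for Ldhb at 6.36 CPM (next 9.78 CPM), 1 male library highest for Slco2a1 at 485 CPM (next 417 CPM) and another highest for podocyte markers without Podxl at 1360 CPM (next 1080 CPM). WT gECs at 6 weeks held 1 male library with Lsp1 at 23.8 CPM (next 12.5 CPM). In WT podocytes the mitochondrial share reached 9.56% in 1 male library at 12 weeks (next 8.01%), and Plcd3 was lowest at 20.3 CPM in 1 female library at 6 weeks (next 25.9 CPM).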

How the results depend on the processing

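Of 1854 differences, 103 named genes under 18 alternatives each, 1737 kept their direction and side of the threshold, 102 lost the call, 15 gained it and 0 reversed. The alternatives that moved the counts most were the covariate for mitochondrial share and the use of 6 and 12 weeks only. With the mitochondrial covariate, 1234 genes passed for the difference (3181 without it), 1227 in podocytes (4202), 505 were of opposite sign with the difference passing (1299), and 73 passed all 3 tests (263), of which 69 were shared. With 6 and 12 weeks only, 2876 passed in gECs (4771) and 145 passed all 3 tests. Leaving out each replicate gave 2285 to 2503 genes for the difference in the 4 fits without a replicate number, 3177 to 3477 genes called in podocytes, and, with the fit that left out 1 deviating WT gEC library (12 weeks, female, replicate 2) included, 2904 to 4337 genes called in gECs and 159 to 269 for all 3 tests; the lowest gEC count was without replicate 2. The cause of these shifts was not tested. Tnfaip3 kept no podocyte call when any replicate was left out (adjusted p = 0.0785 to 0.146). With limma on log2(TPM + 1), 228 genes passed all 3 tests (110 shared) and with DESeq2 291 (256 shared); limma put 51.4% of the differences on the podocyte side, against 59.5%.

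The difference at 18 minus 6 weeks passed in 5 genes, and in 3 with no filter, with no sex term or with the mitochondrial covariate, in 14 by limma, in 48 by DESeq2 and in 2 to 7 with a replicate left out. The difference between sexes passed in 1 gene, in 2 with no filter or with all sorted libraries, in 9 by DESeq2, in 0 by limma, with 6 and 12 weeks only or with either marker covariate, and in 0 to 1 with a replicate left out.

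Same-numbered podocyte and gEC libraries deviated together only in part: over 46 pairs the correlation ranged from -0.0511 to 0.584 (median 0.138), 32 were over 0.1, and 37 libraries correlated best with their own number, a hint from the data that some numbers mark 1 animal. No label says so and not every pair was over 0.1, so the fit without a block was kept. A replicate block by mouse, treating those pairs as 1 animal, gave 3469 genes for the difference (2900 shared), and by number 3162 (279 for all 3 tests); the age contrast then passed in 2 and 8 genes and the sex contrast in 0 and 0. The 18-week libraries were the shallowest, and that limits the calls at that age.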
